A study of Mus musculus with 9 samples.

Results

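The cell cycle genes of adipose-derived cultures that hold beating colonies were compared between beating and non-beating samples and described in a pool of round cells. The set named 41 genes: 33 proliferation genes, which drive G1, DNA replication or mitosis, and 8 exit genes, the Cdkn inhibitors and the Rb family. A gene was read from the array row, or transcript cluster, that the annotation gives to its symbol alone, and from the brightest such row where there were several. By this rule 39 of the 41 were measured, 32 proliferation genes and 7 exit genes, among 19938 genes read in the same way. Ccnb1 (cyclin B1) had no such row, and the 1 row of Cdkn1a (p21) was shared with another symbol, so both are named without values.

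All samples came from C57BL6/J mice of 10 weeks and from the stromal vascular fraction (SVF) of subcutaneous adipose tissue, that is, what remains when mature fat cells are removed. The cells were grown as a primary culture in minimal medium with serum, with no inducing agent and no passage. The 4 beating samples were spontaneously contracting colonies picked by hand on day 28, with the colonies of several dishes of 1 SVF lot combined in a sample. The paper reports that their profile mixed heart and skeletal muscle. Its authors speculate that the picked colonies also held round cells and neighbouring skeletal muscle cells that did not beat. The 4 non-beating samples were the other cells of the dishes on day 28, and the round sample was 1 pool of 6 round cells picked on day 14, with no replicate. RNA of all samples was amplified. Values are log2 signals of Affymetrix Mouse Gene 1.0 ST arrays, on which a difference of 1 is a doubling of a signal that includes background.

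Cells enter the cycle when D-type cyclins, with Cdk4 and Cdk6, and then cyclin E with Cdk2 phosphorylate the Rb family and release E2F factors, which switch on the genes of DNA replication. A later programme, driven by B-Myb and Foxm1, makes the cyclins, kinases and checkpoint proteins of mitosis. Muscle cells leave the cycle as they differentiate, a step in which the Rb protein and the Cdkn inhibitors are known to take part, and heart muscle cells largely stop dividing soon after birth.

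The array medians ran from 3.08 to 3.17 on the 8 beating and non-beating arrays, and the round array stood apart with a median of 3.54. The labels were set beside 16 muscle contractile genes. These were chosen with earlier results of these data known, so they are not an independent check. Their mean log2 signal was 9.31 to 9.66 on the beating arrays, 3.51 to 4.08 on the non-beating arrays and 9.50 in the round pool. Of the 16 genes, 15 passed the test as higher in beating samples and only Ckm, muscle creatine kinase, did not. The largest differences were those of Neb, Myh3 and Actc1. The mean over 12 fibroblast and matrix genes was 8.34 to 8.92 in beating, 9.07 to 9.59 in non-beating and 4.90 in the round pool, with 4 genes, Dcn, Mfap5, Pdgfra and Thy1, lower in beating samples and none higher. The mean over 15 macrophage genes was 3.31 to 5.16 in beating, 5.13 to 6.49 in non-beating and 3.78 in the round pool, with 1 gene, Mpeg1, lower. The mean over 8 adipocyte genes was 4.64 to 4.97 in beating, 5.32 to 5.59 in non-beating and 4.10 in the round pool. Of these genes Lpl, Adipoq and Pparg were called lower in beating samples and none higher. In such mixed samples, fewer cells of a type and less RNA per cell cannot be told apart.

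Few cell cycle genes passed an adjusted test of beating against non-beating samples. By limma with Benjamini-Hochberg adjustment over all 33323 transcript clusters, 2 of the 39 genes passed an adjusted p of 0.05: Rb1, the retinoblastoma gene, was higher in beating samples and Mcm4, a subunit of the replicative helicase, was lower. Over all genes the share called in either direction was 6.95%, with 2.84% higher and 4.11% lower, so the share among the cell cycle genes was not above the background. Over all clusters 940 were higher and 1114 lower, and with each array centred on its median the split was 837 and 1617. Among the 32 proliferation genes none was called higher and 1 lower, and among the 7 exit genes 1 was called higher and none lower. The median difference, beating minus non-beating, was -0.095 over the proliferation genes and -0.087 over the exit genes, against -0.010 over all genes. The value over all genes depended on their signal. It was -0.11 for genes with a mean over the 8 arrays from 4 to 8, -0.11 above 8 and 0.012 below 4. The medians of the cell cycle genes are therefore not read as a shift of their own.

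Without adjustment, 11 of the 39 genes had a p under 0.05, 4 higher and 7 lower, where the share over all genes was 22.8% (8.04% higher and 14.7% lower). The groups did not overlap for 9 genes, and this was so for 15.9% of all genes, 5.76% higher and 10.2% lower. These 9 were Ccnd3, Ccne2, Cdk2 and Rb1, with every beating value above every non-beating value, and Ccnd1, Ccnd2, E2f1, Mcm4 and Rbl2, with every beating value below. Of the measured genes, 7 were dim, with both group means below 3.12, the median of all values on the 8 arrays, as were 42.8% of all genes. The background counts rose with signal. Of 11966 genes with a mean below 4, 1198 had an unadjusted p under 0.05 by limma and 746 did not overlap. From 4 to 8 these were 2885 and 2051 of 7088 genes, and above 8 they were 461 and 380 of 884. The counts among the cell cycle genes are therefore not read as above the background.

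**Figure D1:**
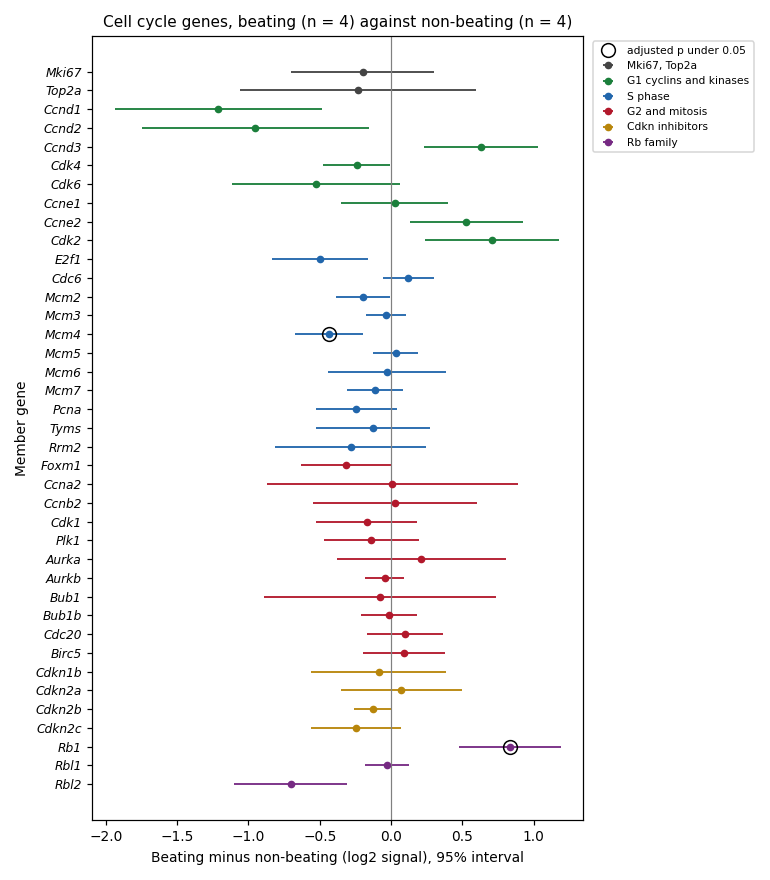
Difference in log2 signal between beating (n = 4) and non-beating (n = 4) samples for the 39 measured cell cycle genes, coloured by role. Points are differences, lines are 95% intervals from limma, and circles mark the 2 genes with an adjusted p under 0.05, Mcm4 at -0.43 and Rb1 at 0.83.

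None of the 8 G1 genes was called. The D-type cyclins had negative differences for Ccnd1 and Ccnd2 and a positive one for Ccnd3. Ccnd1, cyclin D1 (Entrez Gene 12443), had log2 signals of 6.87, 7.33, 8.23 and 8.35 in beating replicates 1 to 4 and of 8.97, 8.84, 8.81 and 9.01 in non-beating replicates 1 to 4. Every beating value lay below the narrow non-beating range, and beating replicates 1 and 2 lay lowest. The difference was -1.21 (95% interval -1.94 to -0.49), a 2.32-fold lower signal, with an adjusted p of 0.0646 by limma, which missed the threshold. It passed when dim clusters were left out (adjusted p = 0.0352) and without beating replicate 4 (adjusted p = 0.0390), the beating value nearest the non-beating range. It passed in no other setting. 

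Ccnd2, cyclin D2 (Entrez Gene 12444), had log2 signals of 8.88, 9.47, 10.46 and 10.45 in beating replicates 1 to 4 and of 10.88, 10.62, 10.87 and 10.70 in non-beating replicates. As for Ccnd1, the groups did not overlap and beating replicates 1 and 2 were the lowest, and the beating SD was 0.78 against 0.13. The difference was -0.95 (95% interval -1.74 to -0.16, adjusted p = 0.161). Ccnd3, cyclin D3 (Entrez Gene 12445), the D-type cyclin known to be kept in differentiated muscle, had log2 signals of 5.94, 5.81, 5.28 and 5.30 in beating replicates and of 5.03, 4.68, 4.96 and 5.13 in non-beating replicates. Here beating replicates 1 and 2 were the highest, all beating values lay above the non-beating values, and the difference was 0.63 (95% interval 0.23 to 1.03, adjusted p = 0.0784, and 0.0459 when dim clusters were left out). Ccnd3 passed in no other setting. The mean over the 12 fibroblast and matrix genes was 8.34, 8.45, 8.84 and 8.92 in beating replicates 1 to 4, lowest in replicates 1 and 2 as for Ccnd1 and Ccnd2. The macrophage list (3.31, 4.08, 4.30 and 5.16) and the endothelial list (3.71, 4.81, 5.21 and 5.51) were lowest in these replicates as well. The adipocyte list (4.89, 4.64, 4.69 and 4.97) was lowest in replicates 2 and 3. The part of any of these cell types in the cyclin D values was not tested.

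Of the kinase partners of the D-type cyclins, Cdk4 had a difference of -0.24 (adjusted p = 0.230) and Cdk6 one of -0.52 (adjusted p = 0.298), and in both the groups overlapped. Of the cyclin E genes, Ccne1 averaged 4.12 ± 0.11 (SD, n = 4) against 4.09 ± 0.34 in the non-beating group, and Ccne2 had 3.42, 4.19, 3.50 and 3.62 in beating replicates and 3.23, 3.08, 2.97 and 3.34 in non-beating replicates. For Ccne2 the groups were separate by a small gap, with beating replicate 2 well above the rest, and the difference was 0.53 (95% interval 0.13 to 0.92, adjusted p = 0.124). Cdk2, the kinase that cyclin E activates, had log2 signals of 4.52, 5.02, 4.35 and 4.06 in beating and of 3.47, 3.79, 3.92 and 3.92 in non-beating replicates. Its groups did not overlap, beating replicate 2 was again the highest, and the difference was 0.71 (95% interval 0.24 to 1.18, adjusted p = 0.0874). Without beating replicate 4, the lowest of its group, the adjusted p was 0.0478, and Cdk2 passed in no other setting.

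**Figure D2:**
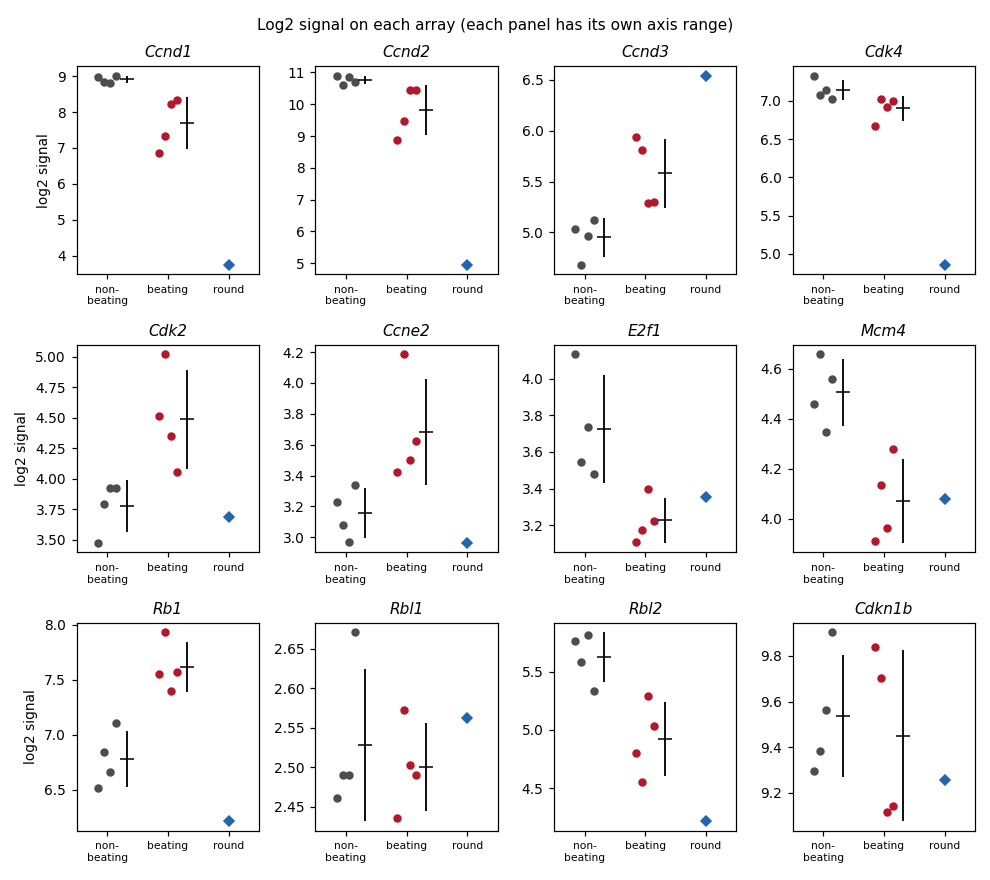
Log2 signal on each array for 12 genes of the G1 to S step in non-beating (grey, n = 4), beating (red, n = 4) and round (blue diamond, 1 pool) samples, each panel with its own vertical range. Black marks are group means with SD, and Ccnd1 and Ccnd2 in the round pool lie at 3.75 and 4.95, far below all 8 other arrays.

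Of the 11 S phase genes, which switch on DNA replication, copy DNA or supply its building blocks, 9 had a negative difference, as did 10532 of all 19938 genes, and only Mcm4 passed the test. Mcm4 (Entrez Gene 17217) had log2 signals of 3.91, 4.13, 3.96 and 4.28 in beating and of 4.46, 4.66, 4.35 and 4.56 in non-beating replicates. The ranges were separate by less than 0.1, and the signal fell by 0.43 on the log2 scale (95% interval -0.67 to -0.19, 1.35-fold, adjusted p = 0.0498). This call sat at the threshold, and it was lost when any 1 array other than beating replicate 4 was left out (adjusted p from 0.0677 to 0.134). The other helicase subunits, Mcm2, Mcm3, Mcm5, Mcm6 and Mcm7, had differences between -0.20 and 0.033, none of them called. E2f1, an activating E2F factor, had 3.11, 3.17, 3.40 and 3.22 in beating and 4.13, 3.55, 3.73 and 3.48 in non-beating replicates. All beating values were lower, and the difference was -0.50 (95% interval -0.83 to -0.16, adjusted p = 0.0912). Pcna, the sliding clamp of the replication fork, averaged 8.75 ± 0.20 (SD) on the beating arrays and 8.99 ± 0.17 on the others (adjusted p = 0.313), and its second row differed by -0.25 as well. Tyms and Rrm2, which make deoxynucleotides, had differences of -0.13 and -0.28, and Cdc6, which loads the helicase, of 0.12, none of them called.

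Mki67, the proliferation marker Ki-67, Top2a, topoisomerase II alpha, and the 11 measured genes of G2 and mitosis showed no difference past the test. None of the 13 had an unadjusted p under 0.05 by limma, and the median difference was -0.043. Of the 13, 3 were dim, and differences of dim genes are understated. In 12 of the 13 the 95% interval lay within 1 log2 unit of 0 on both sides, as it did in 18114 of all 19938 genes. The exception among the 13 was Top2a, whose difference was -0.23 with an interval from -1.06 to 0.60. Mki67 had 2.63, 3.68, 2.89 and 3.33 in beating and 3.10, 3.42, 3.33 and 3.47 in non-beating replicates (difference -0.20, 95% interval -0.70 to 0.30, adjusted p = 0.674). The beating values spread on both sides of the non-beating range, with replicate 2 the highest and replicate 1 the lowest.

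The same spread among beating samples ran through the mitotic genes. Top2a had 3.58, 5.33, 4.39 and 4.78 in beating and 4.31, 4.67, 4.84 and 5.19 in non-beating replicates. Ccna2, cyclin A2, had 3.13, 5.13, 3.58 and 3.77 in beating and 3.92, 3.77, 3.77 and 4.11 in non-beating replicates. Ccnb2, cyclin B2, had 5.06, 6.42, 5.61 and 5.60 in beating replicates, where the non-beating values lay between 5.58 and 5.77. In all 3 genes beating replicate 2 was the highest and beating replicate 1 the lowest of the 8 arrays, so the groups overlapped fully. Bub1, a kinase of the spindle checkpoint, was at 3.63 in beating replicate 2 and between 1.86 and 2.45 in the other beating samples, against 2.42 to 2.78 in non-beating samples. Aurka, the centrosomal Aurora kinase, was at 4.92 in beating replicate 2 and between 3.61 and 4.05 in the other beating samples, against 3.74 to 3.98 in non-beating samples. Cdk1, the kinase that drives entry into mitosis, ran from 3.34 to 4.09 on the beating arrays, and the non-beating range of 3.73 to 3.94 lay inside it.

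The beating SD exceeded the non-beating SD in all 13 of these genes, with medians of 0.33 and 0.10, and in 31 of all 39 genes, where the share over all genes was 64.0%. The order of the beating replicates was examined after the values were seen. Beating replicate 2 held the highest beating value in 9 of the 12 genes that had a single highest value, and over all genes its share was 21.7%. Beating replicate 1 held the lowest in 10 of 13, against 26.4% of all genes. The median deviation of the 13 genes from the beating mean was 0.43 in replicate 2 and -0.32 in replicate 1, against -0.012 and 0.016 over all genes. With the arrays centred on their medians these values were 0.45 and -0.34, and after quantile normalization 0.46 and -0.34. The highest beating value of Plk1 and Bub1b was in replicate 3 and that of Foxm1 in replicate 4, and Aurkb held equal highest values in replicates 1 and 3.

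A list of 46 other mitosis genes, among them kinesins, centromere proteins and condensins, was read for the same pattern. The list shares the arrays and the mitotic programme with the 13 genes, so it is not an independent test. Beating replicate 2 held the highest beating value in 34 of 45 of them. Beating replicate 1 held the lowest in 22 of 45, and replicates 3 and 4 in 11 each, so that part of the pattern was weaker. Their mean log2 signal was 3.76 in replicate 2 against 3.25 to 3.32 in the other beating samples. It was 3.33 to 3.55 in the non-beating samples and 3.18 in the round pool. Between the groups 1 of the 46 was called, Ckap2, a spindle-associated protein, which fell by 0.43 on the log2 scale in beating samples (adjusted p = 0.0387). In 32 other replication genes replicate 2 was highest in 13 of 29, the mean was 3.79 in it and 3.62 to 3.64 in the other beating samples, and none was called (limma, with 2 at an unadjusted p under 0.05, Dbf4 and Dut, named after their values were seen). Macrophage genes varied in another order, with means of 3.31, 4.08, 4.30 and 5.16 in beating replicates 1 to 4, and 8 endothelial genes had means of 3.71, 4.81, 5.21 and 5.51. Both lists were lowest in replicate 1, as the mitotic genes were, but highest in replicate 4. Their part in the mitotic signals was not tested.

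**Figure D3:**
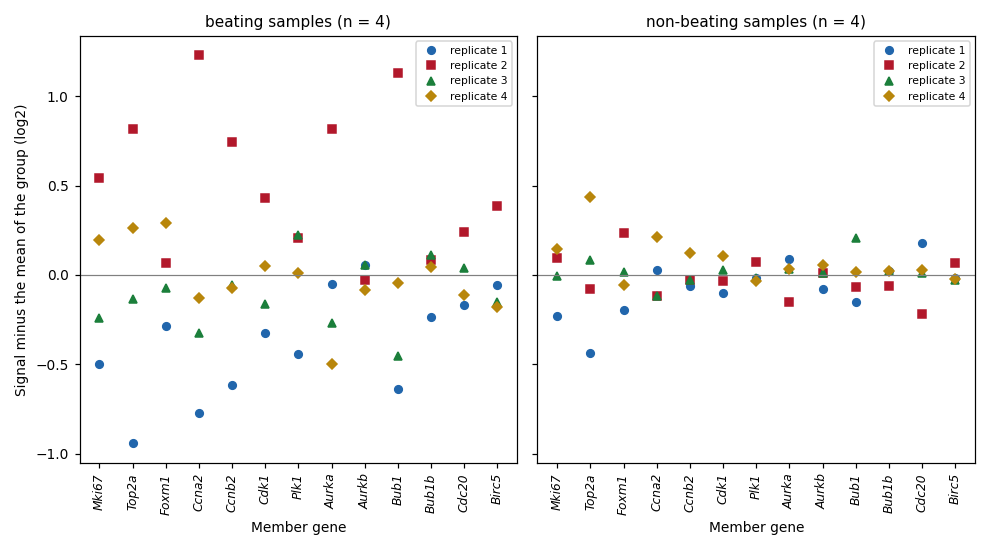
Log2 signal of Mki67, Top2a and the 11 measured genes of G2 and mitosis on each array, as the difference from the mean of its own group, for beating (left, n = 4) and non-beating (right, n = 4) samples. Beating replicate 2 (red squares) is highest in 9 of the 12 genes with a single highest value, and the non-beating values spread less than the beating values in every gene.

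**Figure D4:**
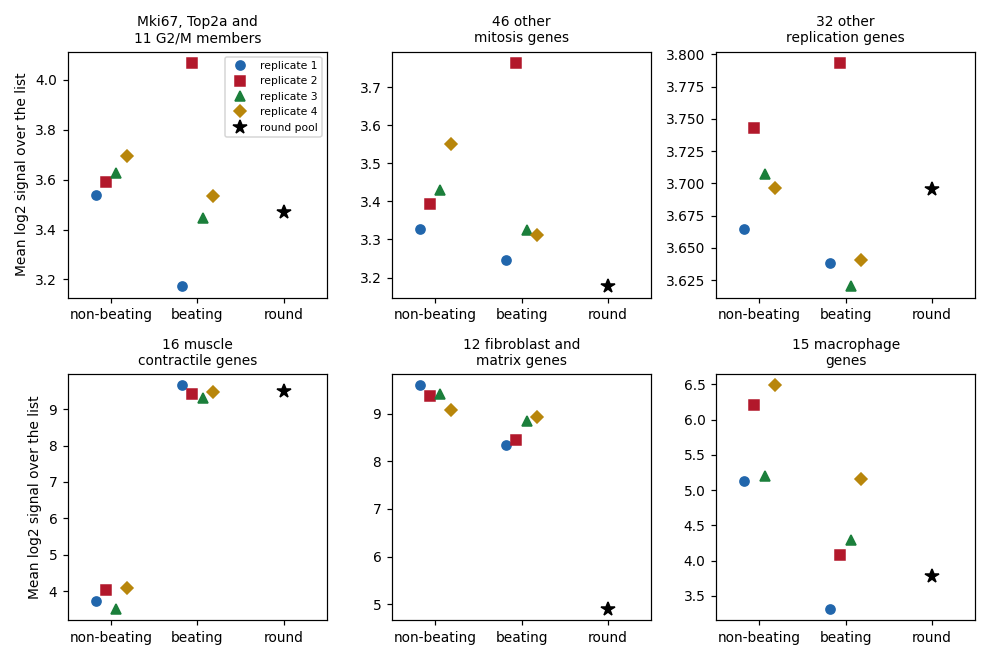
Mean log2 signal over each of 6 gene lists on every array, with replicates 1 to 4 marked by shape and colour and the round pool by a star; each panel has its own vertical range. Both mitotic lists are highest in beating replicate 2, at 4.07 and 3.76, while the macrophage genes are highest in replicate 4 among beating samples.

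The promoters of the mitotic and replication genes are shown because many of these genes were highest in the same beating sample and such promoters are known to share sequence elements. RefSeq promoter sequences on GRCm38.p6, from 250 bases before to 50 after the start, were found for 33 of the 41 genes. The elements searched on both strands were the E2F site (TTTCCCGC, TTTCGCGC, TTTGCCGC or TTTGGCGC), the cell cycle homology region or CHR (TTTGAA or TTCGAA), and the CCAAT box (CCAAT), which NF-Y is known to bind. Of the 11 promoters of Mki67, Top2a and G2 and mitosis genes, Ccnb1 included, 9 held a CHR, 10 a CCAAT box and 1 an E2F site. Of the 32851 promoters of this length that were searched, 19.2% held a CHR and 37.4% a CCAAT box. The promoters of 1 chromosome were left out of this search. Of the 10 S phase genes with a promoter, counted by gene over 11 promoters, 5 held an E2F site and 2 a CHR. An E2F site was held by 2.26% of the promoters searched. Of the 7 exit genes with a promoter, Cdkn1a included and counted by gene over 10 promoters, 2 held an E2F site, 2 a CHR and 3 a CCAAT box. The sequences below are from Ccnb2 (chr9:70421505-70421804, minus strand), Cdk1 (chr10:69352863-69353162, minus strand) and Bub1 (chr2:127831810-127832109, minus strand), mitotic genes that were highest in beating replicate 2, and from Mcm6 (chr1:128359656-128359955, minus strand), a helicase gene with E2F sites. Each is written 5′ to 3′ on the strand of the gene, and capitals mark every match to any of the elements. 
Ccnb2: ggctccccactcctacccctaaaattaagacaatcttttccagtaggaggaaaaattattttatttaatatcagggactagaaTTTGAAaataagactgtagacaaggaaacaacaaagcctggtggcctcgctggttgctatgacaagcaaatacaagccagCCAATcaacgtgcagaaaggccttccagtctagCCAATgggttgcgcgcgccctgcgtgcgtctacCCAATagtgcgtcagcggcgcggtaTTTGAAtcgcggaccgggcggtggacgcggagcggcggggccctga
Cdk1: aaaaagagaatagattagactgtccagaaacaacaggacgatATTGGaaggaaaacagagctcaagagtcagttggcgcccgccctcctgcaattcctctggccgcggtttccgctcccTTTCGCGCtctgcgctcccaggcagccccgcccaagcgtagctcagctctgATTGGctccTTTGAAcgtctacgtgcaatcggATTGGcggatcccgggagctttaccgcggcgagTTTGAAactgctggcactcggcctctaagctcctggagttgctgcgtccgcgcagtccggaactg
Bub1: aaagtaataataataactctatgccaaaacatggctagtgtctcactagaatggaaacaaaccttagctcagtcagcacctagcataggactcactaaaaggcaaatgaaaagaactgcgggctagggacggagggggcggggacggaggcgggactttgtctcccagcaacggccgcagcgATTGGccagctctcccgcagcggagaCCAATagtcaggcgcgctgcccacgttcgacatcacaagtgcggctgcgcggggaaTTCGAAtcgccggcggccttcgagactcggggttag
Mcm6: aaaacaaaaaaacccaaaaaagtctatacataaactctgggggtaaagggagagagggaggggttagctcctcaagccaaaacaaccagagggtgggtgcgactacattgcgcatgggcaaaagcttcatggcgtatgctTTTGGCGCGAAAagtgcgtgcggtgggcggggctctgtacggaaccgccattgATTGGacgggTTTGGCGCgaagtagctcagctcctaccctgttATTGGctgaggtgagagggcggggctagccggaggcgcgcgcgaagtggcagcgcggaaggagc
Ccnb2 held 2 CHR and 3 CCAAT matches, Cdk1 held 2 CHR, 3 CCAAT and 1 E2F match, and Bub1 held 1 CHR and 2 CCAAT matches. Mcm6 held 3 E2F and 2 CCAAT matches and no CHR, and a pair of its E2F matches overlap on opposite strands in 1 run of capitals. A match describes the letters of the promoter only.

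Among the exit genes, Rb1 was the only one called. Rb1 (Entrez Gene 19645), whose product binds E2F factors and holds back entry into S phase, had log2 signals of 7.55, 7.93, 7.40 and 7.57 in beating and of 6.51, 6.84, 6.66 and 7.10 in non-beating replicates. All beating values lay above all non-beating values, and the signal rose by 0.83 on the log2 scale (SE 0.15, 95% interval 0.48 to 1.19), or 1.78-fold, with an adjusted p of 0.0199. The adjusted p was between 0.0530 and 0.0665 when non-beating replicate 1, 2 or 3 was left out, and it was 0.0729 with a two-sample test adjusted in the same way.

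Rbl2 (p130), the family member known to be most abundant in resting cells, had 4.80, 4.55, 5.29 and 5.03 in beating and 5.76, 5.58, 5.81 and 5.34 in non-beating replicates. The groups were separate by a small gap and the direction was opposite to that of Rb1, with a difference of -0.70 (95% interval -1.10 to -0.31, adjusted p = 0.0537). It passed the threshold with arrays centred on their medians (adjusted p = 0.0338), with dim clusters left out (0.0310) and without beating replicate 3 (0.0323), and in no other setting. Rbl1 (p107), usually found in cycling cells, was dim and nearly level, with means of 2.50 ± 0.056 (SD) and 2.53 ± 0.096 for beating and non-beating. The mean log2 signal over the 3 genes was 4.93 to 5.06 in beating and 4.91 to 5.04 in non-beating samples.

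None of the 4 measured Cdkn genes was called. Cdkn1b (p27), an inhibitor of cyclin and Cdk complexes, had 9.84, 9.70, 9.12 and 9.14 in beating and 9.30, 9.38, 9.56 and 9.90 in non-beating replicates, so the groups overlapped fully. Its difference was -0.087 (95% interval -0.56 to 0.39, adjusted p = 0.860). A second, dimmer row of Cdkn1b had groups that did not overlap, with 4.76, 5.25, 5.53 and 5.28 in beating and 5.89, 6.15, 5.90 and 5.68 in non-beating replicates, a difference of -0.70 (adjusted p = 0.0525), and the mean of both rows passed the threshold at -0.39 (adjusted p = 0.0255). Both rows had a negative difference, and they disagreed in its size. Cdkn2a, the Ink4a and Arf locus, averaged 5.75 ± 0.27 on the beating arrays and 5.67 ± 0.31 on the others. Cdkn2b (p15) was at 7.55 ± 0.070 and 7.67 ± 0.045, with a difference of -0.13 (95% interval -0.26 to 0.0086, adjusted p = 0.270), and Cdkn2c (p18) was at 3.45 ± 0.23 and 3.69 ± 0.19. 

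Of 19 other measured inhibitors and growth arrest genes 1 was called. Gadd45a, a stress-induced growth arrest gene, had 9.88, 9.65, 9.37 and 9.63 in beating and 8.73, 8.95, 8.49 and 8.55 in non-beating replicates. The groups did not overlap, and the signal rose by 0.95 on the log2 scale (95% interval 0.64 to 1.26, 1.94-fold, adjusted p = 0.00651), with the round pool higher still at 10.17. Of 16 E2F, DREAM and Myb factors, which act on the promoters of cycle genes, none was called by limma. At an unadjusted p under 0.05, 4 were higher and 0 lower, where 8.04% of all genes were higher and 14.7% lower. The 4 were E2f2, E2f6, E2f8 and Rbbp4, named after their values were seen, with positive differences of up to 0.89 for E2f8 (adjusted p = 0.0601).

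The round pool gave a different profile of G1 genes, described here from 1 array with no test. Ccnd1 was at 3.75 and Ccnd2 at 4.95 in the round pool, below all 8 other arrays, by 5.16 and 5.81 below the non-beating means. Ccnd3 was at 6.54, above all 8 other arrays and 1.59 above its non-beating mean. Beating minus non-beating was -1.21, -0.95 and 0.63 for Ccnd1, Ccnd2 and Ccnd3, and both comparisons share the non-beating arrays. Cdk4 was at 4.86 in the round pool, 2.28 below its non-beating mean, and Cdk2, Ccne1 and Cdk6 lay within the range of the other 8 arrays. After centring on array medians the Ccnd3 value was 1.13 above its non-beating mean, and after quantile normalization 2.64 above.

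Of the 39 genes, the round value lay below all 8 other arrays in 15 and above all 8 in 10, where the shares over all genes were 28.2% below and 45.8% above. All 10 above were proliferation genes, namely Ccnd3, Cdc6, Mcm2, Mcm3, Mcm5, Mcm7, Plk1, Aurkb, Bub1b and Cdc20. Except for Ccnd3, their means over the other samples were below 4, a range in which 68.9% of all genes lay above the other 8 arrays in the round pool. The directions of Plk1 and Bub1b turned under both other scalings, at -0.27 and -0.30 with median centring and -0.28 and -0.27 after quantile normalization, and that of Mcm3 turned after quantile normalization (-0.019). Among the genes below all 8 were Top2a at 3.53, Ccna2 at 2.73, Rrm2 at 3.86, Mcm6 at 3.65 and Pcna at 7.79. Mki67, Cdk1, Ccnb2, Aurka and Bub1 lay within the range of the other arrays, at 3.17, 3.46, 5.50, 3.93 and 2.24.

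The exit genes were not above the other arrays in the round pool. Of the 7, Cdkn2a at 4.24, Cdkn2b at 5.78, Rb1 at 6.21 and Rbl2 at 4.21 lay below all 8 other arrays, and Cdkn1b at 9.26, Cdkn2c at 3.52 and Rbl1 at 2.56 lay within their range. Rb1, which was higher in beating samples, was 0.57 below its non-beating mean in the round pool, and after quantile normalization it was 0.59 above it, so no direction is given. The median of round minus non-beating was -0.17 over the proliferation genes and -0.57 over the exit genes, against 0.17 over all genes, and that last value was -0.28 with median centring and -0.0092 after quantile normalization. Of genes with a mean from 4 to 8, 62.0% lay below all 8 other arrays in the round pool, and of those with both group means above 8, 85.5% did.

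**Figure D5:**
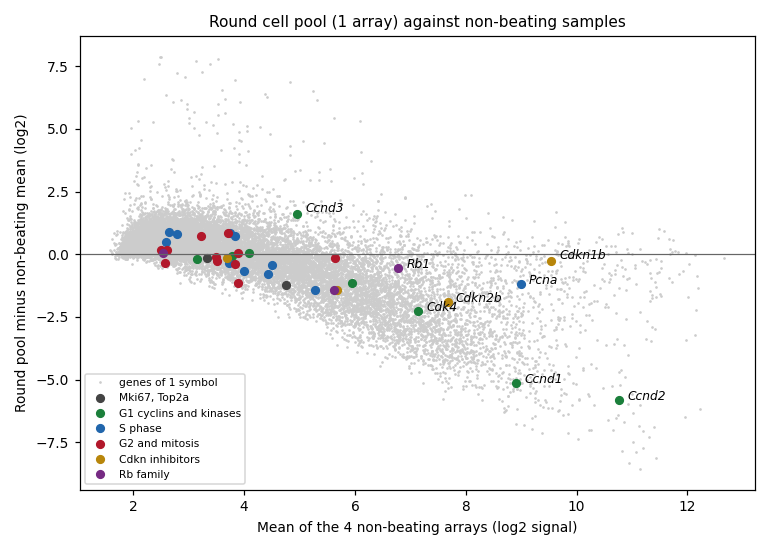
Round pool minus the mean of the 4 non-beating samples (log2) against that mean (log2 signal), for 19938 genes (grey, 1 point each) and the 39 cell cycle genes coloured by role. Bright genes tend to lie below 0 and dim genes above it, and Ccnd3 at 1.59 stands above 0 while Ccnd1 at -5.16 and Ccnd2 at -5.81 lie far below.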

How the data were processed

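RNA of 4 beating, 4 non-beating and 1 round SVF sample was amplified with a whole transcriptome kit and read on 9 Affymetrix Mouse Gene 1.0 ST arrays. The authors deposited log2 signals for 33323 transcript clusters, and for their own analysis they imported raw data into BRB Array Tools, took log2, normalised and centred on the mean. Whether that describes this table is not given in the sources used here. The medians of its beating and non-beating arrays are alike, that of the round array stands apart at 3.54, and its genes are not centred. The array annotation gave 21789 clusters 1 gene symbol, 1621 several and 9913 none. All clusters were fitted with limma 3.58.1 (lmFit, eBayes) in R 4.3.3, on values as deposited, beating against non-beating, two-sided, with Benjamini-Hochberg adjustment over all clusters and a threshold of 0.05. No filter on low signals was used. The round array was left out of the fit. The script was tested on simulated data. The sources do not state whether replicates come from separate SVF lots, so p-values measure the spread between these samples, which may be technical, and the small number of arrays limits their precision. Alternatives were median centring, quantile normalization, dim clusters left out, an intensity trend, array weights, two-sample tests, a replicate block, the mean of a gene's rows and each array left out. The array build is not given in the sources used here, so gene coordinates are printed for promoters only. All cell cycle genes are named. Of the other lists the called genes are named, except that of the called muscle genes only the 3 with the largest change are. The genes and lists were chosen with earlier results of these data known.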

Additional observations from a re-analysis of the deposited data

Results flagged for a closer look

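Over the 39 genes and both groups, 78 sets of 4 values were tested for a sample far from the others of its group (Dixon's test), and 6 were flagged, where chance flags about 1 in 20. In Mcm5, beating replicate 3 was at 2.77 while the other beating samples were all at 2.83. Non-beating replicate 2 was flagged in Plk1 (2.69, nearest 2.60), in Bub1b (2.44, nearest 2.52) and in Birc5 (3.55, nearest 3.47). Non-beating replicate 4 was flagged in Ccnb2 (5.77, nearest 5.61) and in Rbl1 (2.67, nearest 2.49). All of these gaps were under 0.2 on the log2 scale. In 11 of the 39 genes (28.2%) at least 2 of the 8 arrays held exactly the same deposited value, with no tolerance, as they did in 56.1% of all genes, and equal values shrink the range behind such a flag.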

How the results depend on the processing

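Over 17 other settings the 39 differences gave 598 values, of which 542 kept their direction and their side of the threshold, 8 came to pass it, 16 no longer passed it and 32 turned direction. None of the genes that turned was called as deposited. The cause of these changes was not tested, except that settings with an array left out hold fewer samples.

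The exit genes called lower numbered 1, against 0, with median centring, with dim clusters left out and with the mean of a gene's rows. With dim clusters left out the proliferation genes called were 1 higher and 2 lower, against 0 and 1. With the intensity trend, array weights, either two-sample test or the replicate block, 0 proliferation genes were called lower, and with either two-sample test 0 exit genes were called higher. Over all clusters the adjusted two-sample test called 491 higher and 375 lower, and the methods' t-test, at their threshold and after a 1.5-fold filter, 195 and 26. The same-numbered arrays of both groups did not deviate together (correlations from -0.012 to 0.028), so the numbers were not taken as pairs. With a replicate block 637 clusters were higher and 645 lower, Rb1 was called (adjusted p = 0.0390) and Mcm4 was not (0.0536).

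With 1 array left out, 569 to 914 clusters were higher, with the fewest without non-beating replicate 2 (569) and non-beating replicate 3 (575). The number lower was 438 to 1023, and it was over 1.5 times below 1114 without non-beating replicates 1 (547), 2 (438), 3 (473) or 4 (690) and without beating replicate 2 (631). Proliferation genes called were 0 to 1 higher and 0 to 2 lower, and exit genes 0 to 1 higher and 0 to 1 lower.

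The differences that turned with 1 array left out ranged from -0.50 to 0.081 for Top2a, -0.12 to 0.16 for Ccne1, -0.071 to 0.0057 for Mcm3, -0.0025 to 0.079 for Mcm5, -0.15 to 0.11 for Mcm6, -0.26 to 0.027 for Tyms, -0.40 to 0.27 for Ccna2 and -0.22 to 0.23 for Ccnb2. The ranges were -0.21 to 0.010 for Plk1, -0.061 to 0.38 for Aurka, -0.45 to 0.13 for Bub1, -0.053 to 0.063 for Bub1b, -0.036 to 0.15 for Birc5, -0.22 to 0.035 for Cdkn1b, -0.078 to 0.16 for Cdkn2a and -0.052 to 0.020 for Rbl1. For Top2a, Ccna2, Ccnb2 and Bub1 the lowest value was without beating replicate 2 and the highest without beating replicate 1. With median centring Ccne1 was at -0.031, Mcm5 at -0.024, Ccna2 at -0.048 and Ccnb2 at -0.030, after quantile normalization Ccne1 was at -0.024, Mcm5 at -0.026 and Ccna2 at -0.058, and with array weights Mcm6 was at 0.0059 and Bub1b at 0.022.

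For the round pool the median over proliferation genes, minus non-beating, was -0.63 with median centring and -0.45 after quantile normalization, and minus beating -0.57 and -0.31, against -0.17 for both as deposited. Over exit genes, minus non-beating, it was -1.02 with median centring and -1.05 with the mean of a gene's rows, against -0.57, and minus beating -1.10 with median centring and -0.32 after quantile normalization, against -0.71. With median centring 6 proliferation genes lay above all 8 other arrays and 19 below, and 7 exit genes lay below, where 23.5% of all genes lay above and 51% below, against 45.8% and 28.2% as deposited. Against the non-beating mean Mcm3 was at -0.019 after quantile normalization, Plk1 at -0.27 with median centring and -0.28 after quantile normalization, Bub1b at -0.30 and -0.27, and Rb1 at 0.59 after quantile normalization.

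Signals include background, so differences of dim genes are understated. The round values come from 1 array and have no error.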
